A study of Homo sapiens with 2 samples.

Results

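The genes described here are 10 genes known to be induced when oxygen is short: VEGFA, ANGPTL4, ADM, DDIT4, CA9, NDRG1, BNIP3, EGLN1, EGLN3 and ANKRD37. They were taken by symbol from the array platform's annotation, which named 9 of them, each by 1 probe set, among 14884 named genes. CA9 is unnamed here and was not analysed. RNA came from A549 cells, an established line of human lung adenocarcinoma, kept for 4 h in stretch culture (1 array) or for 4 h in static culture (1 array). Neither group carries a labelled genetic change or added agent, and the sources used here do not state how far, how fast or on what device the cells were stretched, or the oxygen level.

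In hypoxia, the EGLN prolyl hydroxylases, which need oxygen, no longer mark the alpha subunits of hypoxia-inducible factor (HIF) for destruction. HIF then pairs with ARNT and binds short cores in the DNA of its target genes. The targets include secreted vessel and lipid factors, brakes on growth, mitophagy receptors, enzymes of glucose use and, as feedback, the hydroxylase genes themselves. Several of these genes also respond to other signals, among them ATF4, glucocorticoid and, for ANGPTL4, the PPAR receptors.

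As deposited, the secreted factors ANGPTL4, ADM and VEGFA and the mTORC1 inhibitor DDIT4 were at least 2-fold higher on the stretched array than on the static one. VEGFA stood at exactly 2-fold, and the hydroxylase EGLN1 was 1.62-fold higher. These calls depend on how the arrays are scaled. With arrays centred on reference genes, VEGFA (0.23), ADM (0.25) and EGLN1 (-0.07, all log2) were under 1.5-fold. After loess or quantile normalization VEGFA and ADM were under 2-fold and EGLN1 under 1.5-fold. The mitophagy receptor BNIP3 was 1.67-fold lower. NDRG1, EGLN3 and ANKRD37 differed by less than 1.5-fold, the last 2 from signals within background. With 1 array a condition there is no test across samples, and every value below describes this pair of arrays, whose number limits the precision.

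To show the DNA in front of these genes, the 250 bases before the annotated start are printed for 5 of them. ANGPTL4, DDIT4 and ADM were at least 2-fold higher as deposited, and BNIP3 was lower. ANKRD37 had signals too low for a change to be read (2.77 under stretch, 3.20 under static culture, log2). The printed bases are RefSeq sequences of GRCh38.p14, 5′ to 3′ on the gene's strand. Capitals mark the HIF cores ACGTG and GCGTG on either strand, so that a core on the opposite strand reads CACGT or CACGC.
ANGPTL4: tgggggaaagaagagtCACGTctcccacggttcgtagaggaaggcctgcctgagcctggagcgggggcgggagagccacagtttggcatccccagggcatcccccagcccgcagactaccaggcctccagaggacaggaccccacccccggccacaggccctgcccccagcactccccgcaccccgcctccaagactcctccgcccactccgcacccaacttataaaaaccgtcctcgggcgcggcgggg
DDIT4: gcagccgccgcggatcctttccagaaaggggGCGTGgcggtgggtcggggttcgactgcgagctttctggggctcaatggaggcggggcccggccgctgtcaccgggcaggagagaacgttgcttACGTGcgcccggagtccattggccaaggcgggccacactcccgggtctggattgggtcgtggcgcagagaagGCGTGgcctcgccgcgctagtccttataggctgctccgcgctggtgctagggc
ADM: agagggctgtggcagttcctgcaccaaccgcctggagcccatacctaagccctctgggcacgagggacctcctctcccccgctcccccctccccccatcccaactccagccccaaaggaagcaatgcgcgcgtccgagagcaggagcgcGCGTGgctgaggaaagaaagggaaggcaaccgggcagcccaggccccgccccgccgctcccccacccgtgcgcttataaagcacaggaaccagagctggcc
BNIP3: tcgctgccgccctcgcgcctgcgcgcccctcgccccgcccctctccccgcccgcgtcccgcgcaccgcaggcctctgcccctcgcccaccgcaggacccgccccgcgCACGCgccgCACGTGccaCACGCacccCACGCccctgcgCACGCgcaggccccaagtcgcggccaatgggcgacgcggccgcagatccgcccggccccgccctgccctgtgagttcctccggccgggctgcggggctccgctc
ANKRD37: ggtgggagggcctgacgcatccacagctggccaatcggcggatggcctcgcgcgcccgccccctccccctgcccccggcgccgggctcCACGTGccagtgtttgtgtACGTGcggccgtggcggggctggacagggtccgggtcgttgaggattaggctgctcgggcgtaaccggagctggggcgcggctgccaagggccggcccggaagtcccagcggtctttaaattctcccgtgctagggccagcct
The windows lie at chr19:8363905-8364154 (plus strand) for ANGPTL4, chr10:72273674-72273923 (plus) for DDIT4, chr11:10304823-10305072 (plus) for ADM, chr10:131981924-131982173 (minus) for BNIP3 and chr4:185396591-185396840 (plus) for ANKRD37.

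The promoter table held 8 of the 10 genes, 7 of them measured. It has no entry for VEGFA or NDRG1. Of the 7 measured genes with a promoter, 6 hold at least 1 HIF core in these 250 bases, and EGLN3 holds 0. Among all 35116 promoters of the same length, 18.5% hold ACGTG, 32.2% hold GCGTG and 43.2% hold either. The windows of the 7 genes are rich in G and C, from 64% for EGLN3 to 81.6% for BNIP3. Shares over all promoters were not matched for this content. ANGPTL4 has 1 core, its first base at position -234 counted from the gene start, and ADM has 1 at -101. DDIT4 has 3 cores, at -219, -125 and -53. BNIP3 has 6 matches in 5 separate stretches between -143 and -100, since CACGTG reads as a core on both strands, and ANKRD37 has 3 matches in 2 stretches. EGLN1 has 1, at -13. BNIP3, with the most matches, was lower under stretch, and ANGPTL4, with 1, had the highest difference of the measured genes. The signals of EGLN3 and ANKRD37 were too low for their differences to be read as change in RNA. Whether the number of cores bears on the differences was not tested. No AP-1 site (TGAGTCA or its reverse TGACTCA, held by 4.20% of promoters), ATF4 site (TGATGNAAN, 3.13%) or TEAD site (GGAATG, 11.9%) lies in these letters of any of the 7. The GC box GGGCGG, found in 42.6% of promoters, lies in 6 of the 7, all but DDIT4. These matches describe letters in 1 short window, and no binding was measured.

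**Figure D1:**
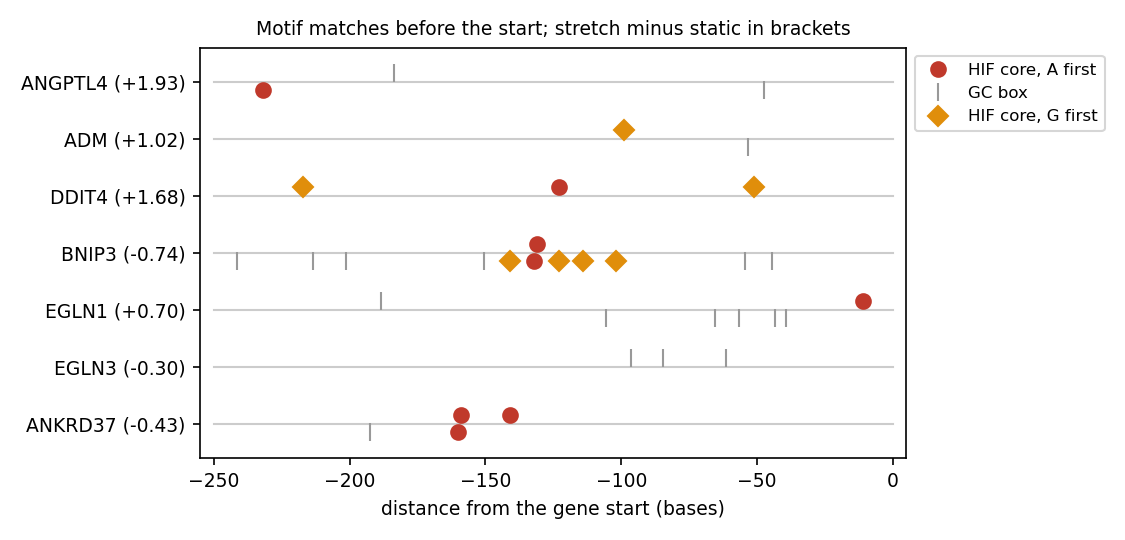
Position of HIF cores (circles, A first; diamonds, G first) and GC boxes (ticks) in the 250 bases before the start of the 7 measured genes with a promoter entry, with the x axis in bases from the gene start. Marks above a line are on the gene's strand and marks below it on the other, and the bracket gives stretch minus static (log2); the 6 BNIP3 matches cluster between -143 and -100.

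Values are log2 signals as deposited, so a difference of 1 is 2-fold, and a difference is always stretch minus static. Counts take in genes with a signal of at least 2.52, the median of all values, on either array. In all 10981 genes met this level filter, the 9 measured here among them. A guide to background, 4.49, is the 95th percentile of the signals of 20 genes of unrelated tissues, out of 46 listed. Of the 20, only ZP3 lay above it, with 5.71 under stretch and 5.20 under static culture. Signals in the background range are compressed and can understate a change in RNA. Over the 10981 genes the median difference was 0.20, with an interquartile range from -0.17 to 0.65, so the genes below are also given relative to it.

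Among the secreted factors, ANGPTL4, an inhibitor of lipoprotein lipase that also acts on vessels, had a signal of 6.77 on the stretched array, against 4.84 on the static array. The difference of 1.93 is 3.81-fold and ranked 139 from the highest among the 10981 genes. Of the 1706 other genes whose mean signal lay within 0.5 of that of ANGPTL4, 2.29% differed by at least as much in this direction. VEGFA, the main growth factor of blood vessels, stood at 5.69 under stretch and 4.69 under static culture, a difference of 1 (2-fold). Of the 1982 genes of like level, 20.7% were at least as high, so VEGFA was above the upper quartile of its level (0.90) by a small margin. ADM, which encodes the vessel-relaxing peptide adrenomedullin, had signals of 5.73 under stretch and 4.71 under static culture. Its difference of 1.02 was matched or passed by 20.2% of 1989 genes of like level. The static signals of all 3 factors lay just above the background guide and below that of ZP3 (5.20), a gene of unrelated tissue. Relative to the median of all genes, the differences were 1.73 for ANGPTL4, 0.80 for VEGFA and 0.82 for ADM.

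DDIT4, also called REDD1, restrains the growth kinase complex mTORC1 through the TSC proteins. Its signal was 8.06 on the stretched array, against 6.38 on the static array. The difference of 1.68 is 3.20-fold, and both signals were well above the background guide. Of 892 other genes of like level, 2.24% were at least as high. ANGPTL4 and DDIT4 thus stood further from genes of their own level than VEGFA and ADM did.

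BNIP3, a receptor of the outer mitochondrial membrane that promotes mitophagy and cell death, ran the other way. Its signal was 7.76 under stretch and 8.50 under static culture, a difference of -0.74. Of 470 other genes of like level, whose median difference was 0.28, 4.04% were at least as low. NDRG1, a stress-responsive gene of growth arrest, had signals of 5.55 under stretch and 5.21 under static culture. Its difference of 0.34 was below the median of 0.45 of genes of like level, and its sign turned after loess (-0.01), quantile normalization (-0.10) and centring on reference genes (-0.43).

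Of the hydroxylases, EGLN1 was measured above background and EGLN3 was not. EGLN1 (PHD2), the main HIF prolyl hydroxylase in most cells, stood at 7.49 under stretch and 6.79 under static culture, a difference of 0.70 that became -0.07 with arrays centred on reference genes. Over the 923 other genes of like level the median difference was 0.32. EGLN3 (PHD3), strongly hypoxia-inducible in many cells, had signals of 2.30 under stretch and 2.60 under static culture. ANKRD37, a compact HIF target with ankyrin repeats, had 2.77 under stretch and 3.20 under static culture. Neither gene passed the background guide on either array, so their differences of -0.30 for EGLN3 and -0.43 for ANKRD37 cannot be read as change in RNA at this signal.

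**Figure D2:**
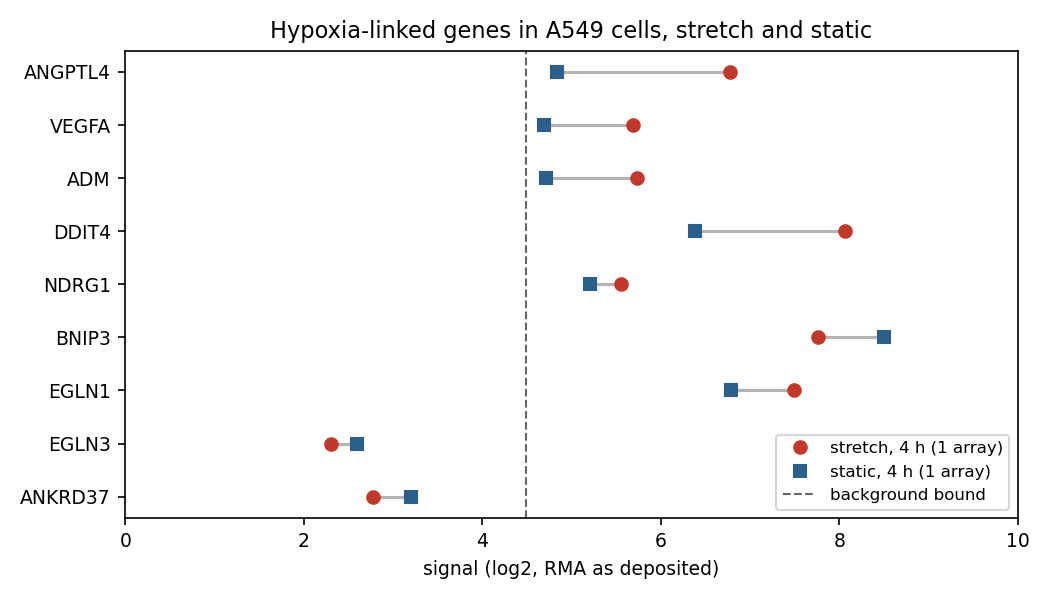
Signal (x axis, log2 as deposited) of the 9 measured genes on the stretched array (circles) and the static array (squares), 1 array each, with the background guide at 4.49 as a dashed line. The lines for ANGPTL4 and DDIT4 are the longest, BNIP3 runs the other way, and EGLN3 and ANKRD37 lie left of the guide.

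As a group, 5 of the 9 genes reached 1.5-fold higher under stretch, as did 27.7% of all genes past the level filter, and 1 reached 1.5-fold lower, as did 8.9% of all genes. At 2-fold, 4 were higher, against 12.3% of all genes, and 0 were lower, against 2.5%. Brighter genes leaned further towards stretch: of 6099 genes that reached the background guide on either array, 39.5% reached 1.5-fold higher and 5.36% lower, set beside 5 and 1 of the 7 measured here that did so. For the 9 genes the median difference was 0.70 (-0.07 with arrays centred on reference genes), against 0.20 for all genes. The 9 differences ranged from -0.74 to 1.93. The genes were listed with earlier results of these arrays known, so these shares describe the genes and are not a test of them.

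**Figure D3:**
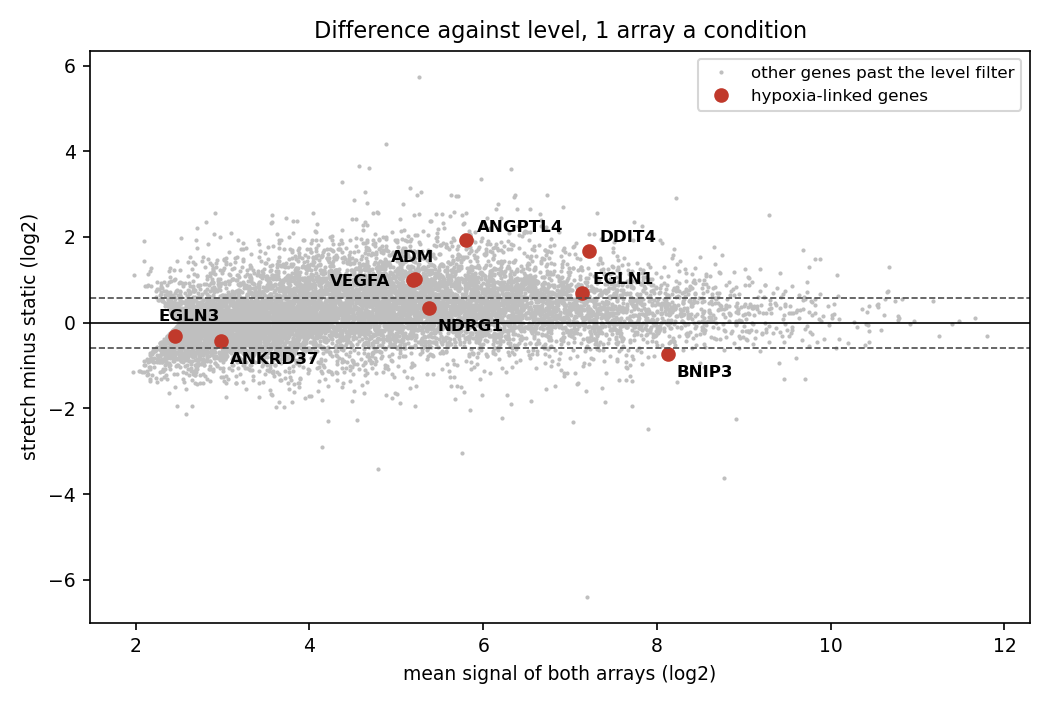
Stretch minus static (y axis, log2) against the mean signal of both arrays (x axis, log2) for the 10981 genes past the level filter (grey) and the 9 measured hypoxia-linked genes (red), with dashed lines at 1.5-fold. ANGPTL4 and DDIT4 lie high in the cloud at their level, with some genes well above them. VEGFA and ADM lie further inside it, and BNIP3 lies low in it.

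How far the values depend on scaling was examined because the deposited columns had unlike distributions, with sorted values up to 0.45 apart. Genes at least 1.5-fold higher made up 75.7% of those past 1.5-fold in either direction as deposited, 83.9% after median centring, 60.7% after loess on level, 54.0% after quantile normalization and 8.80% after centring on reference genes. The median of all genes was 0.31 after median centring, 0.05 after loess, 0.00 after quantile normalization and -0.62 after centring on reference genes. Centring each array on the median signal of 8 measured reference genes lowers every difference by 0.77, so any difference or list median between 0 and 0.77 takes the opposite sign there. These 8 genes themselves ranged from -0.22 for B2M to 1.72 for PPIA, both named after their values were seen. The median of their own differences was 0.375 and the mean 0.58. With 0.375 subtracted instead, an alternative chosen after seeing the data, VEGFA (0.625) and ADM (0.645) stayed past 1.5-fold, EGLN1 stood at 0.325, NDRG1 at -0.04 and the median of the 9 genes at 0.325, and 34.4% of genes past 1.5-fold were higher. Over the 4 scalings named before it ANGPTL4 stayed above 1.5-fold, between 1.16 and 2.03, as did DDIT4, between 0.91 and 1.78, and BNIP3 stayed lower, between -1.51 and -0.64. VEGFA lay between 0.23 and 1.10, ADM between 0.25 and 1.12.

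**Figure D4:**
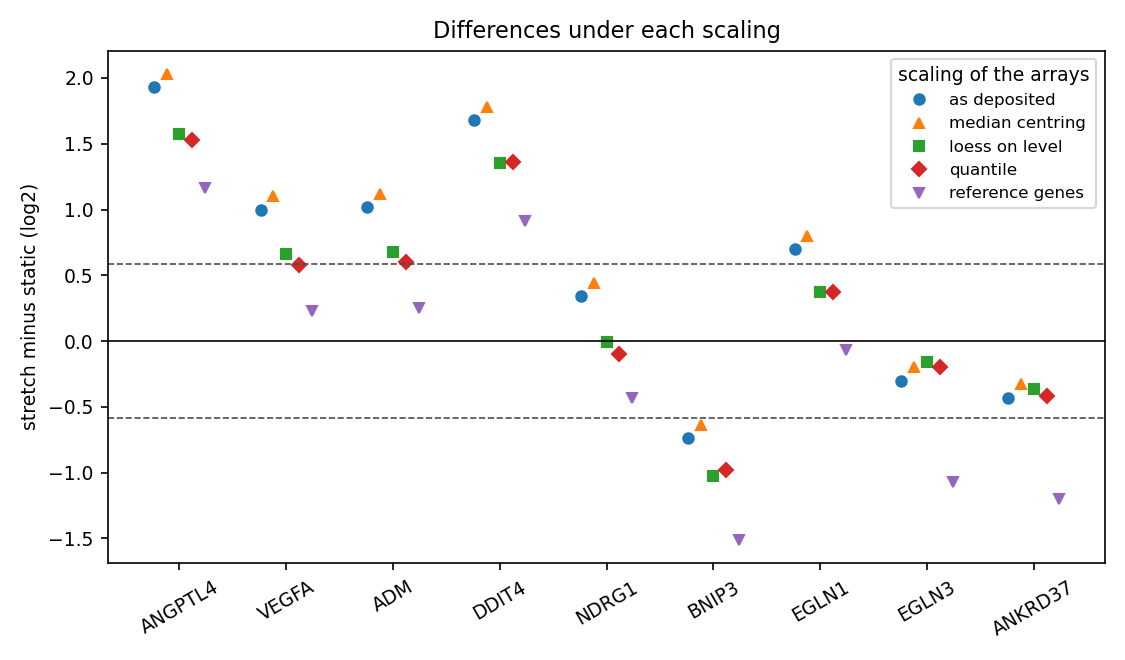
Stretch minus static (y axis, log2) of the 9 measured genes as deposited and under 4 other scalings of the arrays, with dashed lines at 1.5-fold. ANGPTL4 and DDIT4 stay above the upper line and BNIP3 below the lower line under every scaling drawn, while EGLN1 and NDRG1 cross 0 under some.

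The HIF proteins and their regulators were measured for 9 of 22 listed genes, and HIF1A, VHL and HIF1AN were not among those named. EPAS1, which encodes the HIF-2 alpha subunit, had signals of 8.98 under stretch and 7.39 under static culture, a difference of 1.59. SIAH2, a ubiquitin ligase that targets prolyl hydroxylases, stood at 6.00 under stretch and 4.80 under static culture. The partner subunit ARNT2 was higher by 0.90, with neither signal past the background guide, and ARNT itself by 0.39. The difference of SIAH1 was -0.30. In all, 3 of the 9 reached 1.5-fold higher and 0 reached it lower, beside 27.7% and 8.9% of all genes. Of genes that reached the background guide, which ARNT2 alone of the 9 did not, 39.5% were higher and 5.36% lower. The median was 0.29 as deposited and 0.07 after quantile normalization, and after loess it was 0.002.

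Other HIF target genes diverged. Of 49 listed genes 33 were measured and 31 passed the level filter. Past 1.5-fold lay 7 that were higher and 5 that were lower under stretch, and the other 19 differed by less. Their median was 0.11, which turned to -0.02 after loess and -0.10 after quantile normalization. The 22.6% that were higher compare with 27.7% of all genes, and 8.9% of all genes were lower. The 12 past 1.5-fold are all named, the smaller differences among them after their values were seen. STC2, a secreted glycoprotein, was higher by 2.97, LOXL2, a collagen cross-linking oxidase, by 1.80, and the stress factor ATF3 by 1.61, from a static signal below the background guide. The ephrin EFNA3 was higher by 1.10 below the guide on both arrays, the growth factor binding protein IGFBP3 by 0.85, the glycoprotein STC1 by 0.70 and the glycogen synthase GYS1 by 0.68. The static signal of GYS1 (4.32) was below the guide. HILPDA, a lipid droplet protein that inhibits lipolysis, ran the other way, with signals of 6.08 under stretch and 7.57 under static culture, a difference of -1.49. The heme oxygenase HMOX1 stood at -1.18 and the MYC antagonist MXI1 at -0.88, its dimmer probe set at -0.08. The stretched signal of MXI1 (4.26) was below the guide. TMEM45A (-0.65) and MIR210HG (-0.64), the host transcript of the hypoxia microRNA miR-210, lay below the guide.

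Genes of glycolysis and lactate transport were measured for 10 of 25 listed genes, with no glucose transporter among them. Of the 10, 5 reached 1.5-fold higher and 0 reached it lower, and 0 reached 2-fold higher. Among all genes past the level filter, 27.7% reached 1.5-fold higher, 8.9% reached it lower and 12.3% reached 2-fold higher. Of genes that reached the background guide, which HK2 did not, 39.5% were at least 1.5-fold higher and 5.36% lower. The median was 0.43 as deposited, 0.09 after loess and 0.01 after quantile normalization. PGM1, which links glycogen to glycolysis, was higher by 0.86, BSG, a chaperone of lactate transporters, by 0.81, GPI by 0.66, and the hexokinases HK1 and HK2 by 0.62 each, HK2 below the guide. The other 5, named after their values were seen, were PGAM1 (0.24), LDHA (0.23), GAPDH (0.15), PGK1 (0.04) and TPI1 (-0.17).

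Among relatives of VEGFA, 8 of 10 listed genes were measured. VEGFC, a growth factor of lymphatic vessels, had 6.05 under stretch and 5.11 under static culture, and NRP2, a co-receptor for it, 6.52 under stretch and 5.59 under static culture. NRP1, the co-receptor for VEGFA, stood at 8.67 under stretch and 8.35 under static culture, and VEGFB at 5.28 under stretch and 4.91 under static culture. The receptor kinases FLT1, KDR and FLT4, typical of endothelium, stayed below the background guide, as did PGF. Of the 6 that passed the level filter, VEGFC and NRP2 were more than 1.5-fold higher and FLT1 more than 1.5-fold lower. Among all genes past that filter, 27.7% were at least 1.5-fold higher and 8.9% lower. The median of the 6 was 0.345 as deposited, 0.04 after either loess or quantile normalization, and 0.65 over those that reached the guide. The median of all genes that reached the guide was 0.42.

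Relatives of ANGPTL4 and the receptor genes for adrenomedullin were not above the background guide on either array. This held for all 10 measured of 14 listed angiopoietin-like genes, angiopoietins, their receptors and lipoprotein lipase genes, with ANGPTL6 highest in difference (3.41 under stretch and 2.31 under static culture). It also held for all 7 measured of 10 listed adrenomedullin relatives and receptors, among them CALCRL (2.12 under stretch, 2.40 under static culture) and the receptor partners RAMP1, RAMP2 and RAMP3. The median was -0.105 over the 6 angiopoietin relatives and -0.145 over the 4 adrenomedullin relatives past the level filter, and both turned positive after median centring (0.085 and 0.10). The ligand genes ADM, ANGPTL4 and VEGFA were above the guide on both arrays.

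Around DDIT4, 11 of 15 listed genes of the TSC and mTORC1 branch were measured. Of these, 5 reached 1.5-fold higher and 3 reached it lower, beside 27.7% and 8.9% of all genes. Their median was 0.46 as deposited and 0.13 after either loess or quantile normalization. SESN2, a leucine sensor that also restrains mTORC1, had 5.70 under stretch and 3.53 under static culture, the latter below the background guide. DDIT4L, the close relative of DDIT4, was higher by 0.80 below the background guide, and MTOR and AKT1S1 by 0.65 and 0.63. The 3 lower genes, SESN1 (-0.60), TXNIP (-0.60) and SESN3 (-0.59), were named because they are few, and their stretched signals lay below the guide.

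Among relatives of CA9, CA12, a membrane carbonic anhydrase also known as a HIF target, had signals of 9.68 under stretch and 9.46 under static culture. CA11, a relative without enzyme activity, had 5.49 under stretch and 6.66 under static culture, a difference of -1.17. The remaining 9 of the 11 measured lay below the background guide. Of the 6 past the level filter, 0 reached 1.5-fold higher and CA11 alone reached it lower. Over all genes, the share past 1.5-fold was 27.7% upward and 8.9% downward. The median of the 6 was 0.075, which turned to -0.01 after loess and -0.04 after quantile normalization. Among 9 measured relatives of NDRG1 and BNIP3, BNIP2 was higher by 0.73, with its dimmer probe set at 0.06, and BNIPL stood at -0.61, below the guide. The static signal of BNIP2 (4.31) was also below it. The other 7 differed by less than 1.5-fold, and the median was -0.11. The largest differences of these 7 were those of NDRG3 (-0.34) and NDRG2 (0.26). The 1 higher and 1 lower of the 9 relatives stand beside the same all-gene shares, 27.7% upward and 8.9% downward.

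Other signals known to induce ANGPTL4 and DDIT4 were represented by 2 lists. Of 9 measured PPAR-linked genes (17 listed), 2 reached 1.5-fold higher and 1 reached it lower, beside 27.7% and 8.9% of all genes. The median was 0.45 as deposited, 0.15 after loess and 0.07 after quantile normalization. CPT2, of mitochondrial fatty acid import, stood at 1.07 (its dimmer probe set at -0.01), PPARG at 0.91, PPARA at -0.66 below the guide and CPT1A at 0.56. The static signal of CPT2 (3.89) was below the guide. Of 15 listed glucocorticoid-linked genes, 7 passed the level filter. CAVIN2 (1.34), DUSP1 (0.80) and PER1 (0.70) passed 1.5-fold higher. TFCP2L1 (-0.59) passed it lower, from signals below the guide. Over all genes, the share past 1.5-fold was 27.7% upward and 8.9% downward. CAVIN2, DUSP1 and PER1 each lay above the guide under stretch, but PER1 lay below it under static culture (4.25). Among all genes that reached the guide on either array, these shares were 39.5% upward and 5.36% downward. The median of the 7 was -0.24 and their mean 0.19. Over CAVIN2, DUSP1, PER1 and FKBP5, which reached the background guide on either array, the median was 0.75. The median of all genes that reached it was 0.42. The receptor co-chaperone FKBP5, chosen after its value was seen, stood at -0.24.

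**Figure D5:**
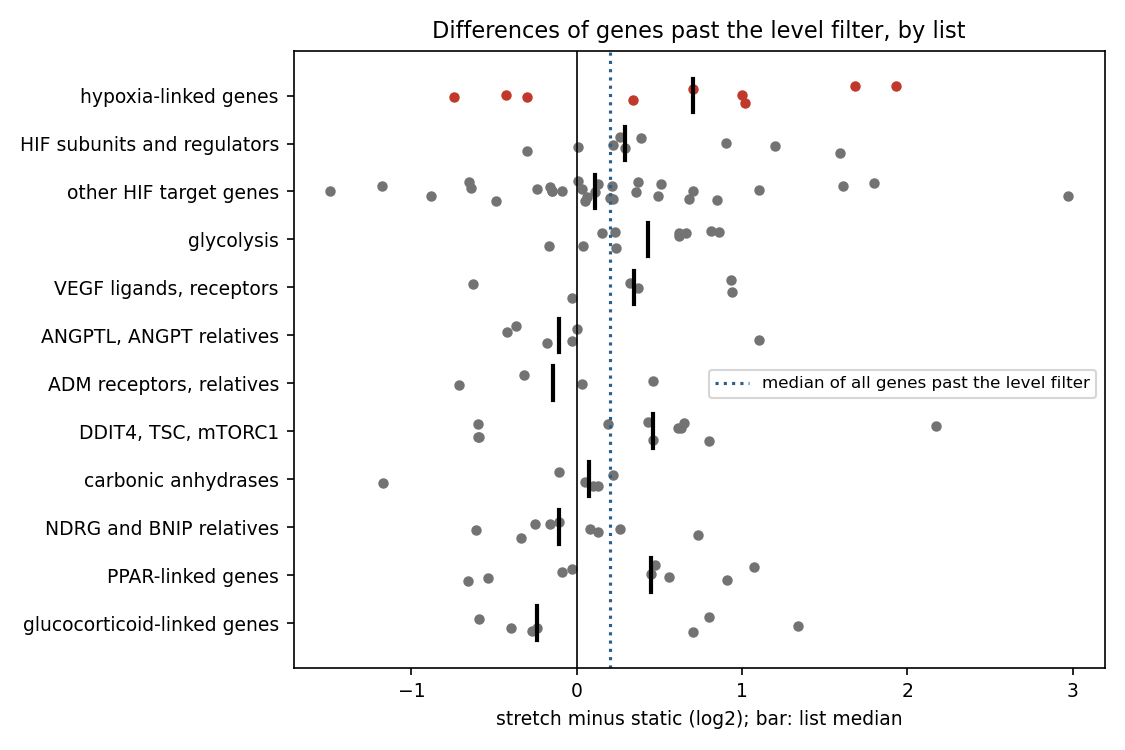
Stretch minus static (x axis, log2) for each gene past the level filter in the 12 lists, 1 point a gene, with a bar at each list's median and a dotted line at the median of all genes, 0.20. The hypoxia-linked genes (red, top) have a median of 0.70, the other HIF target genes spread from -1.49 to 2.97 around 0.11; with arrays centred on reference genes every point moves left by 0.77.

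By the distance between their pairs of signals, the protein-coding genes nearest to VEGFA among 9490 candidates were PNMA2 and SH3PXD2B, with the same 2 values, and RAP1GAP (distance 0.02). Those nearest to ANGPTL4 were ETV4 (0.08), COG8 (0.09) and DUSP14 (0.09). This nearness rests on 2 values a gene.

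The labelled cell type was checked on 8 measured of 20 listed A549 and epithelial genes. Of these, 7 were above the background guide on both arrays and KRT19 was below it. The differences of these 8 genes were not small: KRT7 stood at 2.15, TXNRD1 at 1.15, KRT8 at 0.87, KRT18 at 0.71, KRT19 at 0.01, GPX2 at -0.49, EPCAM at -0.59 and CES1 at -1.18, with its dimmer probe set at 0.26. Among 9 measured markers of endothelial, fibroblast and blood cells, CD68 (8.58 under stretch, 7.51 under static culture) and CD14 (5.53 under stretch, 5.13 under static culture) were above the guide. The other 7, PECAM1, VWF, ESAM, CLDN5, DCN, LUM and LYZ, were below it. Signals of these 9 markers ranged from 1.40 to 8.58 under stretch and from 1.29 to 7.51 under static culture. The difference of CD68 was 1.07, and whether it or the shifts of the epithelial markers bear on the genes above was not tested. Past the level filter, the median difference was 0.36 for the 8 epithelial genes and 0.38 for 5 markers of other cells, the second of which became -0.03 after quantile normalization. Whether fewer cells expressed a gene or each cell held less of its RNA cannot be told apart in bulk RNA.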

How the data were processed

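Total RNA of 2 A549 cultures, 1 stretched and 1 static, was labelled with biotin and hybridised to Affymetrix arrays, per the labels' protocols. Groups were taken from the source names. The stretched sample's title writes the line as A594, and its source name was followed. The authors deposited log2 values for 53617 probe sets, made with RMA, per the submitters' processing notes. Its software and version are not given in the sources used here, and no depth or detection call exists for these values. The log2 scale was inferred from their range. How the columns were normalized to each other is not known.

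The platform annotation named 16098 probe sets by 1 symbol each, none by several, and symbols were updated by gene identifier to RefSeq (GRCh38.p14). The other 37519 are unnamed here. The probe set with the highest mean stood for a gene. Probe set coordinates were not used. Genes were counted at 1.5-fold (0.585) and 2-fold. The loess curve had a span of 0.3. No p-value is given, since each condition has 1 array. The members and gene lists were chosen with earlier results of these data known. Named genes are the 9 measured genes, up to 4 genes of each list with the largest differences, relatives of the 9 genes and HIF regulators, and the 3 genes nearest to VEGFA and to ANGPTL4. All measured cell markers are named too, and other genes are said to have been named after their values were seen. Alternatives were 4 scalings, 1 more scaling added after seeing the data, other level filters and fold thresholds, the mean of all probe sets, and means for medians. The steps were tested on simulated data. Calculations used Python 3.11.15, numpy 2.4.6, pandas 2.3.3, statsmodels 0.14.6 and matplotlib 3.10.9.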

Additional observations from a re-analysis of the deposited data

How the results depend on the processing

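Of the differences of the 9 genes, those of ANGPTL4, DDIT4, BNIP3 and NDRG1 kept their side of 1.5-fold under each of the 4 scalings. Under quantile normalization VEGFA stood at 0.58 and EGLN1 at 0.375, the median of the 9 genes at 0.375, and 3 were at least 1.5-fold higher, with 1815 of all genes higher and 1545 lower. After loess EGLN1 and the median of the 9 genes both stood at 0.37. With arrays centred on reference genes VEGFA (0.23), ADM (0.25) and EGLN1 (-0.07) were under 1.5-fold, and the median of the 9 genes was -0.07. ANGPTL4 and DDIT4, 2 of the 9, still reached 1.5-fold higher. BNIP3 (-1.51), EGLN3 (-1.07) and ANKRD37 (-1.20) were the 3 that reached it lower. For EGLN3 and ANKRD37 the signals lay below the background guide, where a difference cannot be read as change in RNA. Of all genes, 589 were higher and 6104 lower under this scaling (as deposited, 3042 and 977), with a median of -0.62. There, other HIF targets had a median of -0.685, carbonic anhydrases -0.695 and markers of other cells -0.68. With the median of the reference genes' own differences subtracted, an alternative chosen after seeing the data, EGLN1 and the median of the 9 genes stood at 0.325, EGLN3 at -0.675 and ANKRD37 at -0.805, so that 3 genes passed 1.5-fold lower, 2 of them below the background guide, and of all genes 1463 were higher and 2790 lower. Filtering at the upper quartile (4.24) or the background guide left 373 or 327 genes lower and a glucocorticoid list median of 0.75 under both. The median of all genes was then 0.41 or 0.42. At 2-fold, 0 of the 9 genes were lower, and of all genes 1349 were higher and 275 lower. The mean of the 9 differences was 0.58. For angiopoietin relatives and carbonic anhydrases, mean and median also differed in sign. The adrenomedullin and angiopoietin lists held 0 genes under the 2 stricter filters. Each of the 9 genes has 1 probe set, so no second one could be tried. The cause of these shifts was not tested. No paired analysis was possible because each condition has 1 array.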
